A study of Mus musculus with 4 samples.

Results

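Potassium channel subunits of the mouse heart were examined in ventricles of ERRα knockout mice, which lack an orphan nuclear receptor encoded by Esrra, and in ventricles of wild-type mice. The genes were Kcnd2, Kcnq1, Kcne1, Kcnj2, Kcnj12, Kcnj3, Kcnj5, Kcnj8 and Kcnj11. They were taken by name, as every probe set annotated to exactly 1 gene whose symbol or synonym is one of these 9. The rule found 11 probe sets for the 9 genes among the 12422 probe sets of the array that are not controls, of which 10833 name exactly 1 gene, with 2 probe sets each for Kcnd2 and Kcnq1. A total of 4 one-colour Affymetrix arrays was held, 2 of ERRα knockout ventricle and 2 of wild-type ventricle. All were at baseline, with no pressure overload. The labels name the genotype, the chamber and the state, and no age, sex, strain, kind of knockout allele or pooling of animals was given in the sources used here.

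Potassium channels repolarize the cardiac action potential. Kv pore subunits open on depolarization and carry the transient outward and the delayed rectifier currents. Inward rectifiers of the Kir family hold the resting potential, or open in response to G proteins or to a fall in ATP relative to ADP. Much of mouse ventricular repolarization rests on fast transient outward current, to which the Kcnd2 protein contributes, whereas the G protein-gated channel of Kcnj3 and Kcnj5 is best known from atrium and sinus node. ERRα regulates genes of mitochondrial energy metabolism, and the ATP-sensitive channels couple the membrane to the energy state of the cell. The comparison asks whether transcripts of these channels differ between knockout and wild-type ventricle in the absence of stress.

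The values are scaled signals, 1 per probe set and array, and signals of different probe sets are not compared with each other. Differences are given as log2 of knockout over wild type after setting signals below 110.0 to that floor. The targeted gene followed the labels. The Esrra probe set 102145_f_at gave 83.6 and 55.2 in knockout and 2688 and 2828 in wild type, at least 25.1-fold lower in knockout (limma adjusted p = 0.0441, and 0.00243 to 0.752 over the alternatives). The other, 103964_at, gave 922 and 1050 in knockout and 8598 and 8039 in wild type, 8.45-fold lower (limma adjusted p = 0.179). Of 10 listed cardiomyocyte markers 8 were on the array, none of them below the floor on all arrays. Their summed signal was 915717 and 1072870 in knockout, against 1095560 and 1084770 in wild type. Of their 9 probe sets 0 were higher and 3 lower in knockout without overlap (20.7% and 16.7% of all probe sets were), with Mybpc3 at log2 -0.50, Tnnt2 at -0.20 and a list median of -0.11. For β-actin the knockout arrays had 5′ to 3′ signal ratios of 0.694 and 0.813 and those of wild type 0.966 and 0.909. For Gapdh the ratios lay closer together, 0.994 and 0.968 in knockout against 1.04 and 1.01 in wild type. The part of these differences in the results below was not tested.

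None of the 11 probe sets passed an adjusted p of 0.05 (limma, adjusted p 0.590 to 1 over the members), and 0 had an unadjusted p under 0.05. Over all 7453 probe sets past the signal filter, a mean of at least 350.6, the same adjusted threshold called 1 probe set, or 0.0134%, and the unadjusted one called 6.79%. The 1 called was 102145_f_at of the targeted gene Esrra, with both knockout values under the floor. Over the 12422 probe sets without a filter the unadjusted threshold called 8.85% and the adjusted one 0. Of the 11 probe sets, 6 from 5 genes passed the filter, and 5 did not, including the only probe sets of Kcnj2, Kcnj12, Kcnj3 and Kcnj5. Groups did not overlap for 4 of the 11, higher in knockout for Kcnd2 and Kcnq1, each on 1 of its probe sets, and lower for Kcnj8 and Kcnj12. Over all probe sets past the filter 20.7% were higher and 16.7% lower without overlap, and without a filter 17.8% and 12.6%. The difference reached 1.5-fold without overlap for 1 of the 11, Kcnd2. That call took 6.84% of all probe sets past the filter as higher and 4.2% as lower, and 7.71% and 4.27% without a filter. Its split depended on scaling, with 510 higher and 313 lower as deposited, 396 and 414 after quantile normalization and 440 and 387 after median scaling. In bulk tissue, fewer cells of a type and less RNA per cell cannot be told apart.

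**Figure D1:**
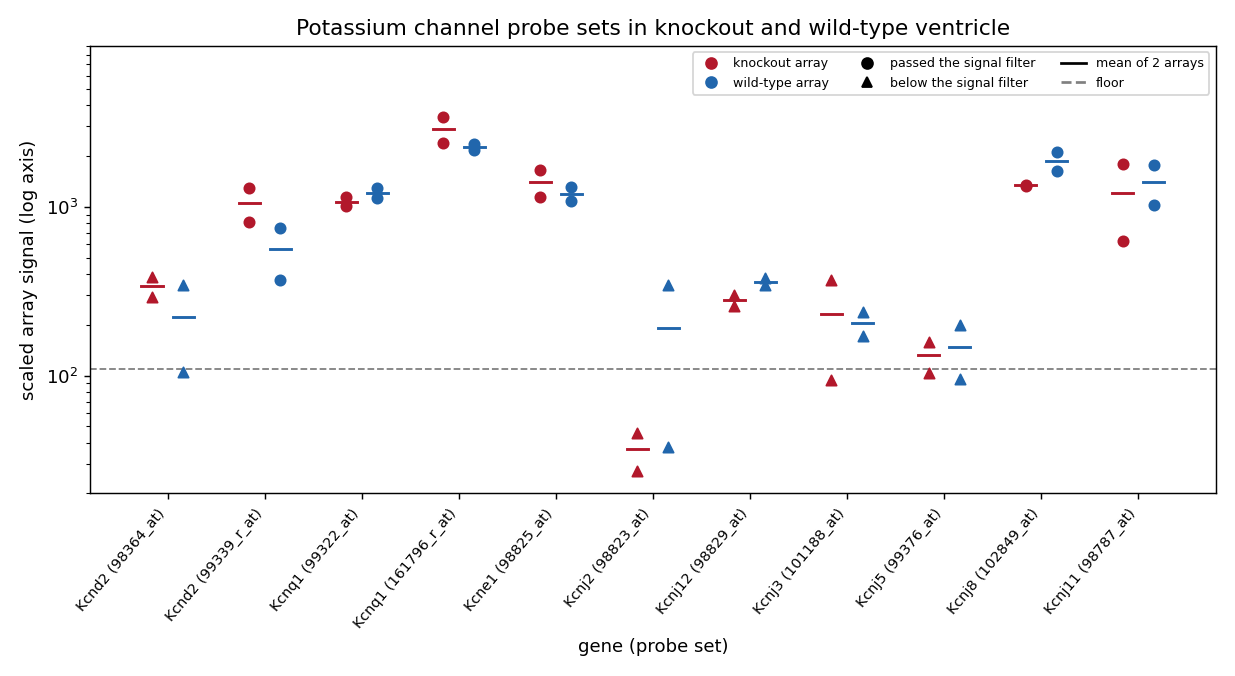
Scaled signal on a log axis for each of the 11 probe sets, with the 2 knockout arrays left of the 2 wild-type arrays, a bar at each mean, and the floor of 110.0 as a dashed line. Circles passed the signal filter and triangles did not. The 2 knockout values of Kcnd2 (99339_r_at) lie above both wild-type values, those of Kcnj8 and Kcnj12 lie below, and 3 of 4 Kcnj2 values lie under the floor.

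Among the 6 probe sets past the filter, Kcnd2 had the largest difference. It encodes Kv4.2, the pore of the fast transient outward current. Its probe set 99339_r_at, whose suffix marks relaxed rules of probe choice, gave 1300 and 809 in knockout, against 369 and 753 in wild type. Both knockout arrays were higher than both wild-type arrays, but knockout replicate 2 lay close to wild-type replicate 2, and wild-type replicate 1 was the low one. The difference was 0.96 on the log2 scale (SE 0.45, 95% interval -0.24 to 2.16, limma adjusted p = 0.767), or 1.95-fold. It was 1 of the 6 member probe sets past the filter, against the 6.84% of all. Without wild-type replicate 1 the log2 difference was 0.45, below 1.5-fold, and without wild-type replicate 2 it was 1.48.

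The other Kcnd2 probe set, 98364_at, did not pass the filter. It gave 290.9 and 386 in knockout, against 105 and 343 in wild type. Here too wild-type replicate 1 was lowest and sat under the floor, while wild-type replicate 2 lay between the knockout arrays. On the log2 scale the difference was 0.79 (SE 0.74, 95% interval -1.81 to 3.38, limma adjusted p = 0.840 in the fit without a filter). Without wild-type replicate 1 it was -0.03.

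Nerve tissue and the conduction system also express potassium channels, and their markers were set beside Kcnd2. Of 8 listed nerve and glia genes 5 were on the array, and 1 probe set, of Th, passed the filter, with 172 and 458 in knockout against 454 and 543 in wild type (log2 -0.82). The nerve list summed to 798 and 1115 in knockout, against 1085 and 1002 in wild type, with Nefm below the floor on all arrays. Conduction system markers, with 5 of 8 genes on the array, summed to 3302 and 2086 in knockout, against 2279 and 1880 in wild type. Of these sums Shox2 gave 1566 on knockout replicate 1 and 524 on knockout replicate 2, against 654 and 465 in wild type. Their 2 probe sets past the filter, Shox2 at log2 0.72 and Gja5 at 0.23, overlapped between the groups, and the list had a median of 0.47. The part of either cell type in the Kcnd2 values was not tested.

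The delayed rectifier genes gave small differences. Kcnq1 encodes the pore of the slow delayed rectifier and Kcne1 its accessory subunit, which slows the opening of the channel. Kcnq1 gave 1007 and 1141 in knockout against 1135 and 1296 in wild type on probe set 99322_at. Its groups overlapped by a few signal units, with a log2 difference of -0.18 (SE 0.21, 95% interval -0.74 to 0.38, limma adjusted p = 0.888). On probe set 161796_r_at, Kcnq1 gave 3405 and 2386 in knockout against 2354 and 2169 in wild type. The knockout values were both higher, by a narrow margin for replicate 2, with a log2 difference of 0.34 (SE 0.26, 95% interval -0.35 to 1.02, limma adjusted p = 0.836). The probe sets of Kcnq1 therefore differed in sign, and without knockout replicate 1 the second was at 0.08.

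Kcne1 gave 1141 and 1664 in knockout, against 1084 and 1309 in wild type. Knockout replicate 1 lay between the wild-type arrays and knockout replicate 2 above them. The groups differed by 0.21 on the log2 scale (SE 0.28, 95% interval -0.53 to 0.95, limma adjusted p = 0.907), and it was -0.06 without knockout replicate 2.

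**Figure D2:**
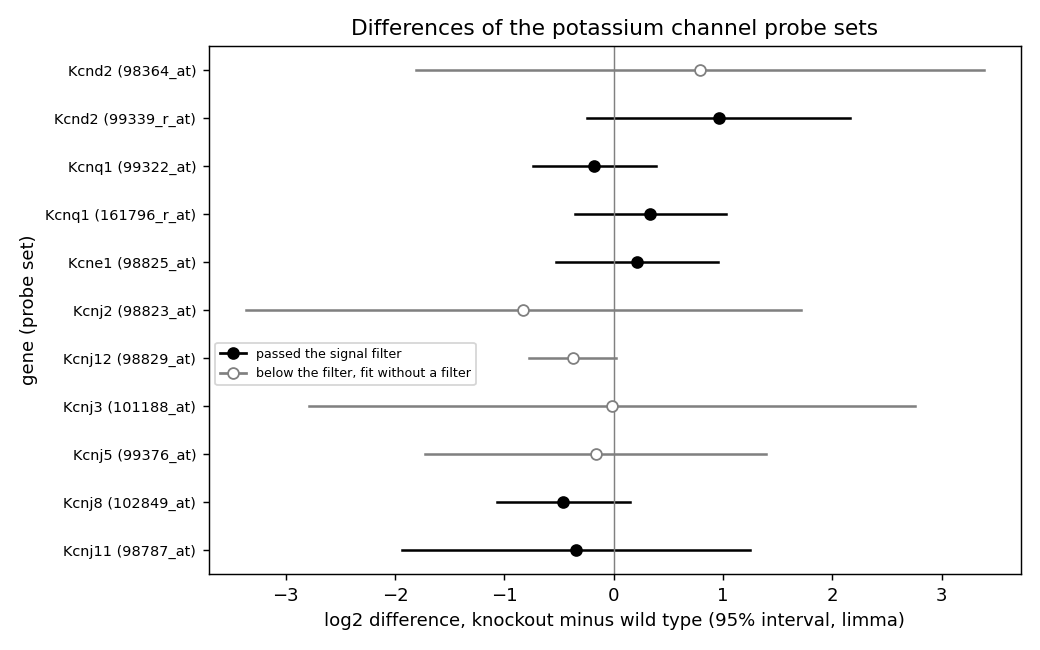
Log2 difference of knockout minus wild type for each probe set, with the 95% interval of the limma fit; filled points passed the signal filter and open points come from the fit without a filter. Every interval includes 0. Filled and open points come from separate fits with separate variance estimates, so interval widths are not comparable between them. Among the open points, the interval of Kcnj12 reaches 0 most narrowly, from -0.77 to 0.02.

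The strong inward rectifiers Kcnj2 (Kir2.1) and Kcnj12 (Kir2.2) carry the background inward rectifier current that holds the resting potential of ventricular myocytes. The Kcnj2 probe set gave 45.6 and 27.3 in knockout, against 346 and 37.9 in wild type. Only wild-type replicate 1 lay above the floor. The log2 difference of -0.83 (SE 0.73, limma adjusted p = 0.838) was set by that array alone, and without it all arrays lay at the floor and the difference was 0. It was -1.60 with the floor at the 5th percentile, -0.01 with the floor at the 40th and -1.65 without wild-type replicate 2. Values under the floor have no order, so Kcnj2 was not measured in knockout or on wild-type replicate 2.

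Kcnj12 gave 299 and 258 in knockout, against 344 and 377 in wild type. Both knockout arrays were lower, and replicates lay close together, 0.21 apart on the log2 scale in knockout and 0.13 in wild type. The log2 difference was -0.37 (SE 0.11, 95% interval -0.77 to 0.02, unadjusted p = 0.0573, limma adjusted p = 0.590 without a filter), a 1.30-fold difference. The unadjusted limma p depended on the setting. It was 0.0411 with median scaling, 0.148 with the floor at the 5th percentile and 0.298 with the floor at the 40th. Of the 5 members below the filter 1 was lower without overlap. Without a filter 12.6% of all probe sets were, which includes those past the filter, at 16.7%. The share among probe sets below the filter alone is therefore under 12.6%. The difference kept its sign without each array in turn, from -0.48 to -0.27, and was -0.08 with the floor at the 40th percentile of signals, which lies within the Kcnj12 range.

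Kcnj3 (Kir3.1) and Kcnj5 (Kir3.4) together form the channel that acetylcholine and adenosine open through G proteins. Kcnj3 gave 367 and 94.3 in knockout, against 240 and 172 in wild type. The knockout arrays lay on opposite sides of the wild-type arrays, and knockout replicate 2 was under the floor. The log2 difference was -0.02, with a 95% interval of -2.78 to 2.75 (limma adjusted p = 1), which leaves changes of several-fold in either direction within it.

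Kcnj5 gave 159 and 104 in knockout, against 95.5 and 200.1 in wild type. Of its values 2 of 4, 1 in each group, lay under the floor, and the groups overlapped. Kcnj5 differed by -0.17 on the log2 scale (95% interval -1.72 to 1.39, limma adjusted p = 1).

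Because this channel is best known from atrium, atrial markers were set beside it. All 10 listed genes were on the array and none lay below the floor on all arrays, with sums of 42264 and 41186 in knockout against 50999 and 39833 in wild type, of which Clu gave 22402 and 12075 on wild-type replicate 1. Of the 9 atrial probe sets past the filter, 6 were higher and 2 lower in knockout without overlap, against 20.7% and 16.7% of all probe sets, and the list had a median log2 difference of 0.67. Those with the lowest p were Clu, which is also expressed outside the atrium, with 9841 and 11055 in knockout against 22402 and 18647 in wild type, and Stard10, with 4102 and 4237 against 2340 and 1718 (limma adjusted p = 0.694 for both). Both lower probe sets were of Clu, and Myl4, Myl7, Nppa, Dkk3 and Stard10 had higher knockout values without overlap, with log2 differences of 1.18 and 0.58 for the probe sets of Myl4, 0.79 for Myl7, 0.72 for Nppa and 0.67 for Dkk3. Kcnj3 and Kcnj5 overlapped between the groups while 8 of these 9 probe sets did not. Both lay below the filter, with 1 and 2 arrays under the floor and intervals of -2.78 to 2.75 and -1.72 to 1.39. Their overlap therefore cannot tell whether they followed the atrial markers. Whether the share of atrial tissue differed was not tested.

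The ATP-sensitive channels are built from Kcnj8 (Kir6.1) or Kcnj11 (Kir6.2) pores with sulfonylurea receptors. Kcnj8 is prominent in vascular smooth muscle and pericytes, and Kcnj11 in ventricular myocytes. Kcnj8 gave 1355 and 1339 in knockout, against 1632 and 2103 in wild type. Both knockout arrays were lower and nearly identical, 0.02 apart on the log2 scale, and the wild-type arrays lay 0.37 apart. The log2 difference was -0.46 (SE 0.23, 95% interval -1.06 to 0.15, limma adjusted p = 0.787), a 1.38-fold difference, and it ran from -0.64 to -0.28 without each array in turn. Past the filter 16.7% of all probe sets were lower without overlap, and 1 of 6 members was.

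Vascular markers were set beside Kcnj8. The smooth muscle and pericyte list, with 7 of 8 genes on the array and none below the floor on all arrays, summed to 28102 and 21087 in knockout against 14252 and 14232 in wild type. That sum followed Acta2, smooth muscle α-actin, with 18753 and 10916 in knockout against 4135 and 2909 in wild type (log2 2.04, limma adjusted p = 0.661). The pericyte marker Rgs5 gave 1491 and 2222 in knockout against 2211 and 2618 in wild type on the probe set with the lower p (log2 -0.40), with overlap. The list's median over 7 probe sets was 0.00, with 1 higher and 0 lower without overlap, against 20.7% and 16.7% of all probe sets. All 7 endothelial genes were on the array, and their sums were 19814 and 20059 in knockout against 25220 and 22828 in wild type. Of 10 endothelial probe sets past the filter 0 were higher and 4 lower without overlap, against the same shares, and the median was -0.15. Those with the lowest p were Tie1 at log2 -0.57 and Cdh5 at -0.54, and no endothelial gene was below the floor on all arrays. The part of vessel content in the Kcnj8 values was not tested.

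Kcnj11 gave 1799 and 628 in knockout, against 1024 and 1776 in wild type. The 2 knockout arrays enclosed both wild-type arrays, and their gap of 1.52 on the log2 scale was wider than in 96.3% of the probe sets past the filter. The log2 difference was -0.34 (SE 0.60, 95% interval -1.93 to 1.25, limma adjusted p = 0.923). It was -1.10 without knockout replicate 1 and 0.42 without knockout replicate 2, so no direction could be given.

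The sulfonylurea receptors that pair with these pores did not pass either. Abcc9, the receptor of cardiac and vascular channels, gave 4579 and 4298 in knockout against 3126 and 4888 in wild type (log2 0.18). Abcc8, best known from pancreatic β-cells, gave 1069 and 656 in knockout against 957 and 885 in wild type (log2 -0.14). Both overlapped between the groups, and both were named after their values were seen, as partners of Kcnj8 and Kcnj11.

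**Figure D3:**
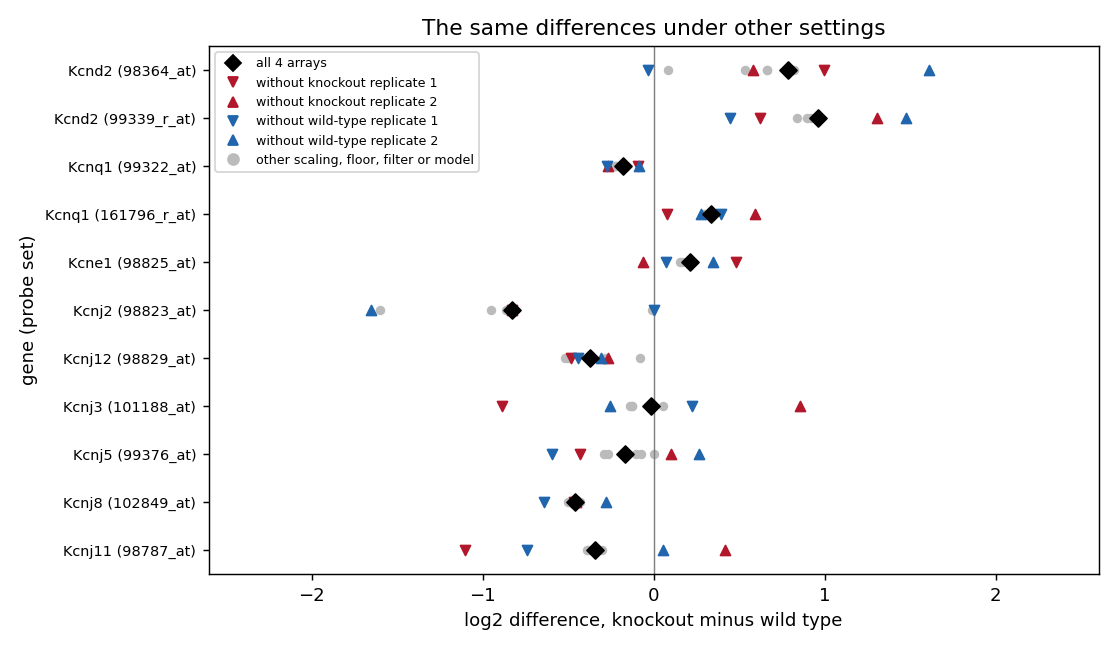
Log2 difference of knockout minus wild type for each probe set with all 4 arrays (diamonds), without each array in turn (coloured triangles) and under the other settings (grey). Kcnd2 (99339_r_at), Kcnj8, Kcnj12 and both Kcnq1 probe sets stay on one side of 0, whereas Kcnd2 (98364_at), Kcne1, Kcnj11, Kcnj3 and Kcnj5 cross it without single arrays and Kcnj2 reaches 0.

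Potassium channel subunits outside the 9 were described from 4 lists of 65 genes. Of these 34 were on the array and 19 had a probe set past the filter, 20 probe sets in all. None passed the adjusted threshold (limma, lowest adjusted p = 0.694), and 3 of 20 had an unadjusted p under 0.05, against 6.79% of all probe sets. Without overlap 4 were higher and 2 lower, against 20.7% and 16.7% of all, and at 1.5-fold 3 were higher and 0 lower, against 6.84% and 4.2%. Their median log2 difference was 0.01, against 0.03 over all probe sets past the filter. A further 2 lists of 27 genes held G protein input, scaffolds and regulators, with 27 probe sets past the filter and a median of 0.13, and 0 of these passed (limma, lowest adjusted p = 0.738) or had an unadjusted p under 0.05.

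Of the other voltage-gated pore subunits, 14 of 27 were on the array and 6 probe sets passed the filter, of which 2 were higher and 1 was lower without overlap, against 20.7% and 16.7% of all probe sets. Their median log2 difference was 0.33. Kcns1, an electrically silent subunit that modifies Kv2 channels, gave 610 and 442 in knockout against 226 and 257 in wild type (log2 1.11, limma adjusted p = 0.694). It passed the filter only through its knockout arrays. Kcnd3, which encodes Kv4.3, the close relative of Kv4.2, gave 1589 and 1693 in knockout against 1439 and 865 in wild type (log2 0.56, limma adjusted p = 0.810). Without wild-type replicate 2 the Kcnd3 difference was 0.19.

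Of the accessory subunits 4 of 12 were on the array, and the 1 probe set past the filter was Dpp6, a dipeptidyl peptidase-like protein that associates with Kv4 pores. Dpp6 gave 713 and 1042 in knockout against 480 and 499 in wild type (log2 0.82, SE 0.27, limma adjusted p = 0.694). Its knockout values were both higher, as in 20.7% of all probe sets.

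Among the other inward rectifiers and sulfonylurea receptors 7 of 11 genes were on the array, and 6 probe sets had a median log2 difference of -0.18, with 1 higher and 1 lower without overlap, against 20.7% and 16.7% of all probe sets. Kcnj6, which encodes a G protein-gated subunit best known from neurons, gave 399.6 and 672 in knockout against 196 and 224 in wild type (log2 1.31, SE 0.32, limma adjusted p = 0.694). Its knockout arrays alone brought it past the filter. Kcnj9, another G protein-gated subunit, gave 607 and 457 in knockout against 665 and 645 in wild type (log2 -0.31). Among the two-pore and calcium-activated channels 9 of 15 genes were on the array and 0 of 7 probe sets were free of overlap, with a median of -0.19. Kcnk2, a two-pore background channel, had a log2 difference of 0.35 with overlap. Kcnn1, a calcium-activated channel, gave 311 and 1372 in knockout against 841 and 1636 in wild type (log2 -0.84), with knockout replicate 1 the low one.

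The list of receptors, G proteins and Rgs regulators that act on the Kcnj3 and Kcnj5 channel had 10 of 13 genes on the array. Its 15 probe sets past the filter came from 8 genes, none of them a receptor gene. Of these probe sets 1 was higher and 1 lower without overlap, and the median log2 difference was 0.06. Gnb1, a G protein β subunit, gave 2936 and 2803 in knockout against 3881 and 3584 in wild type on 1 probe set (log2 -0.38, limma adjusted p = 0.795). Other Gnb1 probe sets were at -0.16 and 0.09 with overlap. Rgs10, which speeds the shut-off of Gα subunits, was at log2 0.91 on 1 probe set and 0.20 on another, both with overlap. Scaffolds and transcriptional regulators, 8 of 14 genes with 12 probe sets past the filter, had 4 higher and 0 lower without overlap and a median of 0.22. These counts, too, stand against 20.7% and 16.7% of all probe sets. Ank3, ankyrin-G, gave 1320 and 1576 in knockout against 771 and 1058 in wild type (log2 0.67, limma adjusted p = 0.738), and 0.13 on another probe set. Nfatc3, a calcineurin-dependent transcription factor, was at 0.38.

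**Figure D4:**
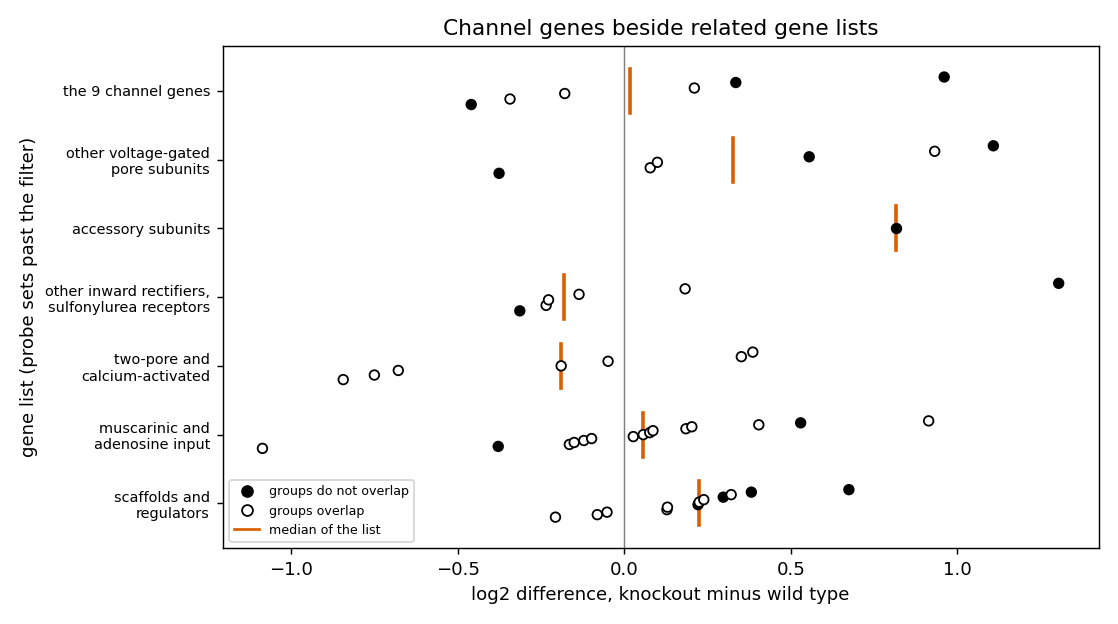
Log2 difference of knockout minus wild type for the 6 probe sets of the 9 channel genes past the filter and for those of 6 related lists, 1 point per probe set. Filled points mark probe sets whose groups do not overlap, and the orange bar is the median of the list, from -0.19 for two-pore and calcium-activated channels to 0.82 for the single accessory probe set.

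Fibroblast markers were the remaining cell type list. All 8 genes were on the array, none below the floor on all arrays, and they summed to 95896 and 101007 in knockout against 70737 and 81137 in wild type. Of 12 probe sets past the filter 9 were higher and 0 lower without overlap, against 20.7% and 16.7% of all probe sets. The median log2 difference was 0.43, and the lowest p belonged to Col1a2 at 0.74 and Lum at 0.79. Their part in the channel values was not tested.

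The profile of Kcnd2 (99339_r_at) over the 4 arrays was compared with 6696 single-gene probe sets of other genes past the filter, by the root-mean-square distance between log2 profiles centred on their own means. The nearest were Mau2 at 0.0751, Col12a1 at 0.0777 and Dhodh at 0.0990. All 3 had their lowest signal on wild-type replicate 1 and their highest on knockout replicate 1, as Kcnd2 did. Mau2 gave 723 and 469 in knockout against 233 and 419.9 in wild type.

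The promoters of the members with the largest difference past the filter in each direction, Kcnd2 and Kcnj8, are shown because a receptor that binds DNA is missing from the knockout. The windows are the 250 bases before the RefSeq start in GRCm38.p6, on the gene's strand. Capitals mark the GC box GGGCGG or its reverse complement. The Kcnd2 window lies at chr6:21215096-21215345 on the + strand and the Kcnj8 window at chr6:142571615-142571864 on the - strand.
Kcnd2: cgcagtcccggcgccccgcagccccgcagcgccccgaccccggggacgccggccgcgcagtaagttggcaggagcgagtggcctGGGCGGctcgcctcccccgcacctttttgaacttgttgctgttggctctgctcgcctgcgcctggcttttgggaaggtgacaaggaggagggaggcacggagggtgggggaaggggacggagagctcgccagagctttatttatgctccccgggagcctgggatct
Kcnj8: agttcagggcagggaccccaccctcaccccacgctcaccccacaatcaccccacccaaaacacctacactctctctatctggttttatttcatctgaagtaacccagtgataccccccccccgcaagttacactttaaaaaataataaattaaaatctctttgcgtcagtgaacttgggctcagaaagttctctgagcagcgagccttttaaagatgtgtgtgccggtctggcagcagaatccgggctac
The Kcnd2 window is 68.8% G and C and holds 1 GC box, and the Kcnj8 window is 49.2% G and C and holds none. Windows of 300 bases, 250 before and 50 after the start, were held for 6 of the 9 genes (Kcnd2, Kcnj2, Kcnj12, Kcnj3, Kcnj5 and Kcnj8). The ERR response element TCAAGGTCA, searched on both strands, was in 0 of the 6 and in 0.423% of all 32851 RefSeq windows. Its looser form TNAAGGTCA was in 0 of 6 and 1.28% of all, and the core AAGGTCA, which both forms contain, in 0 of 6 and 4.72%. GC boxes were in 4 of the 6 windows, those of Kcnd2, Kcnj2, Kcnj3 and Kcnj5, and in 35.7% of all. A missing match says only that these letters are not in these windows.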

How the data were processed

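Total RNA of ventricle was labelled as biotinylated cRNA and hybridized to Affymetrix arrays, per the labels' protocols. The deposited intensity values are linear, 1 per probe set and array. Their mean without the top and bottom 2% of probe sets lay between 1480 and 1483 on the 4 arrays, so they were scaled. Software, summary method and background correction were not given in the sources used here. Precision is limited by there being 4 arrays, and nothing states that the samples of a group are separate animals, so p-values may measure technical spread only.

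Groups came from the sample titles. Gene symbols came from the platform annotation, and 10817 of 10833 probe sets with 1 symbol matched the RefSeq table of GRCm38.p6 by gene ID. A further 396 had several symbols and 1193 none. After removing 66 controls, probe sets with a mean under the 40th percentile (350.6) were dropped. Values were floored at the 20th percentile (110.0) and put on the log2 scale. All 7453 remaining probe sets were fitted with limma 3.58.1 in R 4.3.3 (lmFit, eBayes), adjusted by Benjamini-Hochberg and called at 0.05. Members below the filter took their values from the same fit on all 12422 probe sets. With 2 arrays a group the smallest two-sided p of an exact permutation test is 0.333, and no such test was run. The fit was tested on simulated data.

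The members and all gene lists were chosen with earlier results of these data known. Every member probe set is named. Of each list the 2 probe sets with the lowest unadjusted p are named, and for likeness in pattern the 3 nearest to the member with the largest difference past the filter. Named beyond this rule were the other atrial probe sets without overlap, further probe sets of Gnb1, Rgs10 and Ank3, and the sulfonylurea receptors Abcc8 and Abcc9. Alternatives were the floor, the filter, a pseudocount of 100, quantile and median scaling, another eBayes prior, the replicate number as a block, and leaving out each array.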

Additional observations from a re-analysis of the deposited data

How the results depend on the processing

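No member probe set passed the adjusted threshold under any of the 13 alternatives. Over all probe sets the count of calls, 1 in the main setting, was 0 with the floor at the 5th or 40th percentile, with no filter and with the replicate block, 2 with the filter at the 60th percentile and with the trend and robust prior, and 0 without any 1 of the arrays. Calls of at least 1.5-fold without overlap numbered 510 higher and 313 lower, 958 and 530 with no filter, 183 and 144 with the filter at the 60th percentile, 396 and 414 with quantile normalization, 440 and 387 with median scaling, and 796 to 862 and 565 to 661 without each array in turn, where 2 arrays against 1 overlap less often by construction.

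Among the members the 1 higher call, Kcnd2, was 0 with the filter at the 60th percentile, which removes it, and 0 to 3 calls without each array. It was lost without wild-type replicate 1 (log2 0.45). The 0 lower calls became 1 with median scaling, from Kcnj2 at -0.95, because scaling after the floor moves floored arrays apart, and 0 to 2 without each array. Those were Kcnj3 and Kcnj11 without knockout replicate 1, Kcnj5 and Kcnj8 without wild-type replicate 1, and Kcnj2 without wild-type replicate 2. Median scaling over the 12422 probe sets without a filter moved the median of all differences to -0.12, and the values of members below the filter under that setting are relative to it.

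The sign turned for Kcnj3 with the floor at the 40th percentile (0.054). Without single arrays, log2 differences ran from -0.032 to 1.61 for Kcnd2 (98364_at), -0.061 to 0.48 for Kcne1, -1.10 to 0.42 for Kcnj11, -0.89 to 0.85 for Kcnj3, -1.65 to 0 for Kcnj2 and -0.60 to 0.27 for Kcnj5. The sign turned without wild-type replicate 1 for Kcnd2 (98364_at) at -0.032 and Kcnj3 at 0.22, without knockout replicate 2 for Kcne1 at -0.061, Kcnj11 at 0.42, Kcnj3 at 0.85 and Kcnj5 at 0.10, and without wild-type replicate 2 for Kcnj11 at 0.05 and Kcnj5 at 0.27. The cause was not tested. Kcnd2 (99339_r_at), Kcnj8, Kcnj12 and both Kcnq1 probe sets kept their sign in all alternatives that gave a value, from 0.45 to 1.48, -0.64 to -0.28, -0.52 to -0.08, and, for Kcnq1, -0.27 to -0.08 and 0.08 to 0.59. Nothing states that a replicate number joins a knockout to a wild-type sample, so the numbers were not taken as pairs. Same-numbered arrays did not deviate together (correlation 0.011 across probe sets), and the block called 0 probe sets. A low signal limits Kcnj2, Kcnj3, Kcnj5 and Kcnd2 (98364_at), which had 1 to 3 arrays under the floor.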
